A study of Mus musculus with 6 samples.

Results

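The coreceptor and CD3 genes of the mouse T cell, together with Zbtb7b, lie in 4 stretches of the genome. The CTCF peaks called in these stretches are described here. The Cd4 window spans chromosome 6 from 124700000 to 125000000, the Cd8a-Cd8b1 window chromosome 6 from 71200000 to 71500000, the Cd3e-Cd3d-Cd3g window chromosome 9 from 44750000 to 45050000, and the Zbtb7b window chromosome 3 from 89200000 to 89400000, all in mm39. A peak belonged to a window when it overlapped it by at least 1 bp. In this way 280 of the 173073 peaks in the 6 deposited lists were taken, 35, 43 and 51 in the wild-type lists and 51, 48 and 52 in the knockout lists. Peaks of all lists that overlapped were merged, which gave 96 of the 94951 regions of chromosomes 1 to 19, X and Y.

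CTCF binding had been profiled by CUT&RUN, which cuts out and sequences the DNA next to an antibody-marked protein. The cells were regulatory T cells of the thymus, from wild-type mice (WT, 3 libraries) and from mice with a knockout of Cgas, the gene of the cytosolic DNA sensor cGAS (Cgas_KO, 3 libraries), and the stated aim was to profile CTCF in both genotypes. The labels give no strain, age or treatment. They do not say whether the deletion is confined to T cells. Separate animals behind the replicates are not stated either, and every p-value below reflects the spread among 6 libraries, which may be technical. Peak lists hold no expression values, so the labelled cell type could not be checked against its markers.

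CTCF is a zinc-finger protein that stops the extrusion of chromatin loops and so marks loop anchors and domain borders. Such borders set which enhancers a gene can reach, which matters at the coreceptor genes because thymocytes keep either CD4 or CD8 when they mature. Cd4 encodes the coreceptor for MHC class II, and Cd8a and Cd8b1 encode both chains of the coreceptor for MHC class I. Cd3e, Cd3d and Cd3g encode invariant chains that carry the signal of the T cell receptor. Zbtb7b encodes ThPOK, the transcription factor that commits thymocytes to the CD4 lineage and keeps the CD8 genes off. Thymic regulatory T cells belong to the CD4 lineage.

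The lists held 27207 to 31796 peaks each, and the read depth behind them is unknown. The height of a peak is its maximum signal, which was a whole multiple of 1 step in each list. A step was worth more signal in every WT list than in any Cgas_KO list, so heights were compared through their percentile within the list, where 100 is the tallest peak, and are also given in steps. No gene annotation of mm39 was used, so peaks are placed by position and not by promoter or intron. By gene order in RefSeq's table of GRCm38.p6, an older build used for names alone, Cd4 lies between Gpr162 and Lag3, Cd8a beside Cd8b1 and Rmnd5a, the CD3 genes between Ube4a and Mpzl2, and Zbtb7b between Dcst2 and Lenep. The windows are wider than these genes, and a peak in a window need not belong to the gene that names it. In each window the regions are numbered from its left end.

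Peaks were dense at Cd4, at the CD3 genes and at Zbtb7b, and sparser at Cd8a-Cd8b1. The Cd4 window held 13.7 peaks per list on average, the CD3 window 14.0 and the shorter Zbtb7b window 12.5, above 98.8%, 98.9% and 99.7% of the genome bins of the same width that held a peak. The Cd8a-Cd8b1 window held 6.50, above 86.0% of bins. A 300 kb bin held 2.33 peaks at the median and a 200 kb bin 1.5. Peaks covered 13.7% to 24.4% of the Cd4 window, 11.3% to 25.7% of the CD3 window, 19.1% to 31.5% of the Zbtb7b window and 4.34% to 14.2% of the Cd8a-Cd8b1 window, over the 6 lists.

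**Figure D1:**
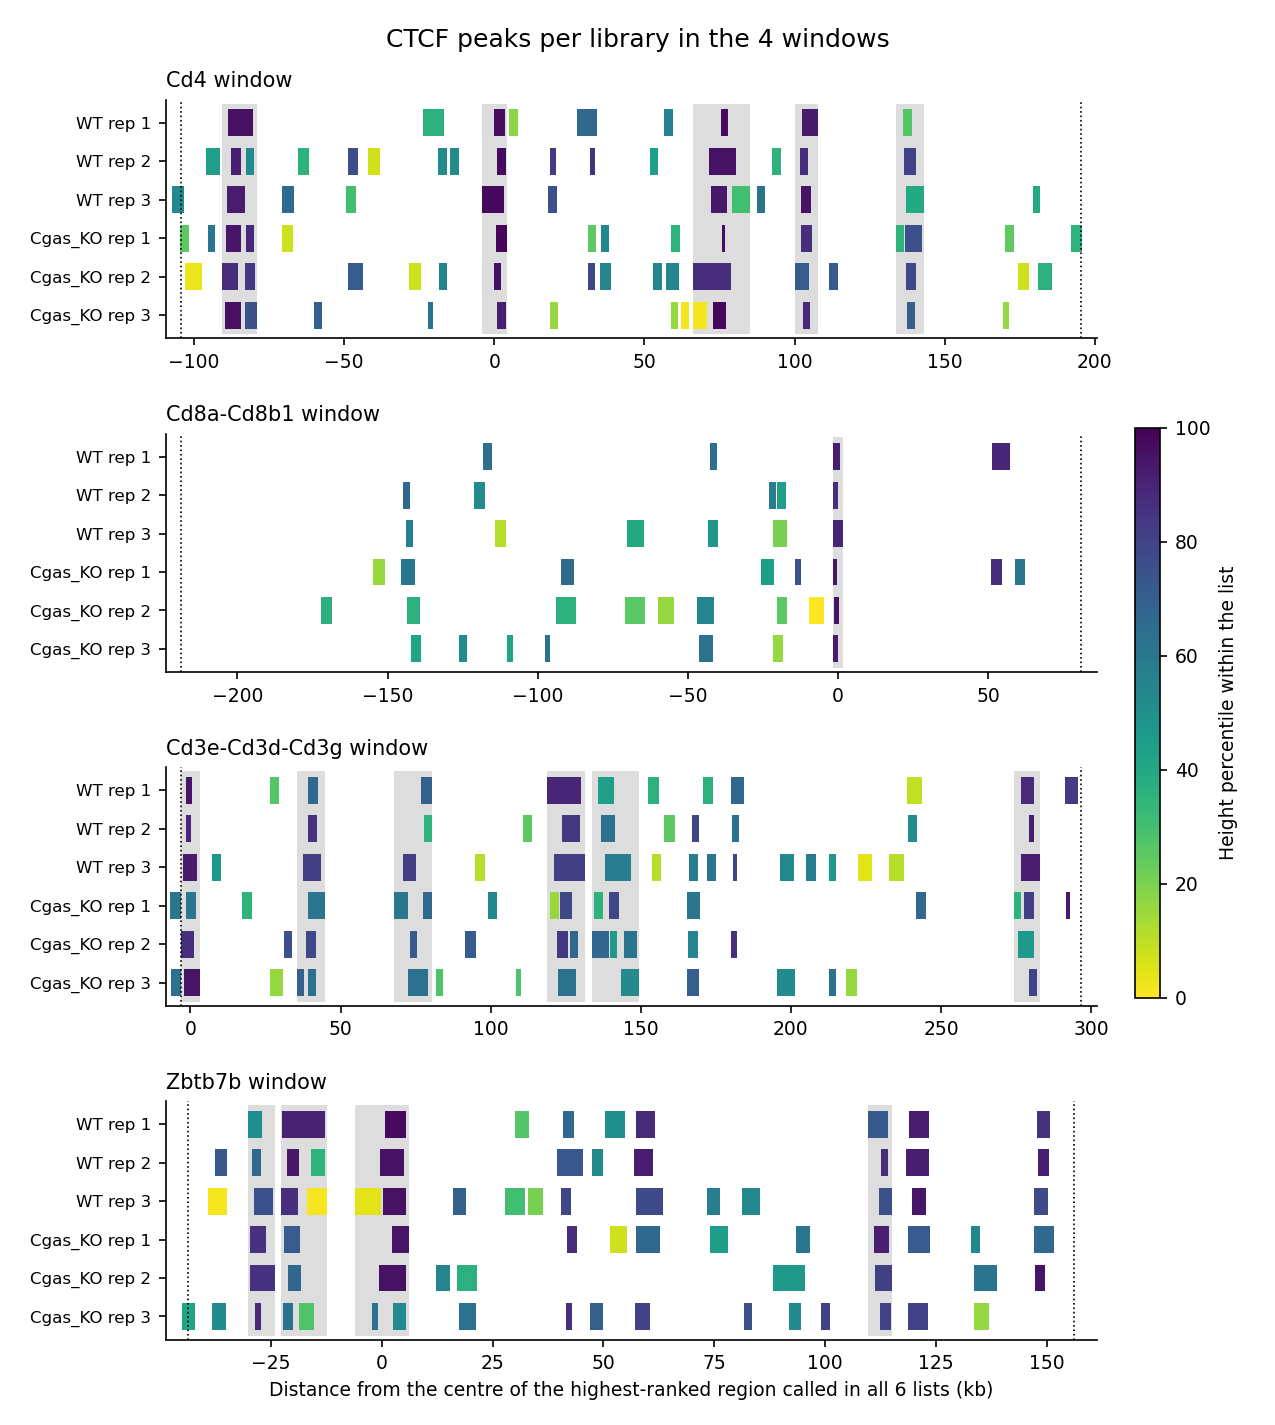
CTCF peaks of each library (bars, 1 row per library) in the 4 windows, by distance in kb from the centre of the highest-ranked region called in all 6 lists; colour gives the height percentile within the list, grey bands mark regions called in all 6 lists, and dotted lines mark the window edges. The Cd8a-Cd8b1 window has 1 grey band, against 5 at Cd4, 6 at the CD3 genes and 4 at Zbtb7b.

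Regions called in every library were frequent in 3 of the 4 windows. Of the 96 regions, 16 (16.7%) were called in all 6 lists, where 5.16% of all merged regions were. They numbered 5 at Cd4, 6 at the CD3 genes, 4 at Zbtb7b and 1 at Cd8a-Cd8b1. At least as many were found in 1.98%, 1.17%, 1.82% and 29.9% of genome bins of the same width, in that order. Single-list regions numbered 37 (38.5%), against 69.9% of all merged regions. The windows thus held relatively more shared and fewer single-list regions than the genome at large. The count of 16 depended on how regions were built. It was 0 under a requirement that a list's peaks span 50% of the region. Over the genome, 608 of the 94951 merged regions met that rule in all lists. The count was 2 of 179 when regions were built by joining each point of maximum signal to the next one within 200 bp. For this last rule the share over the genome is not given here.

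**Figure D2:**
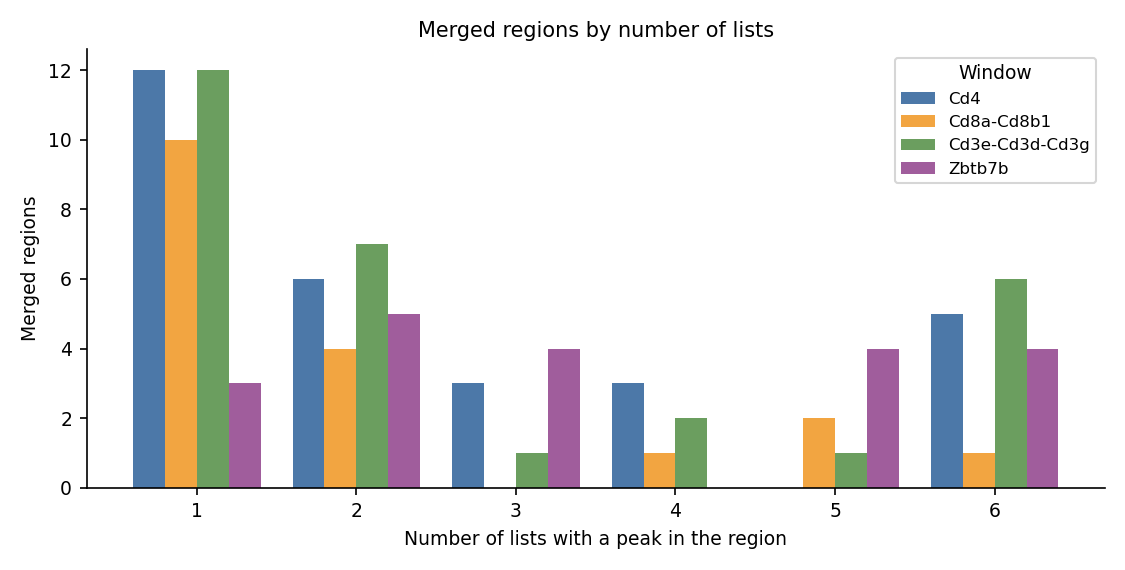
Number of merged regions (y axis) by the number of lists with a peak in the region (x axis), with 1 bar colour per window. Single-list regions are the most frequent class at Cd4, Cd8a-Cd8b1 and the CD3 genes, with 12, 10 and 12 regions, while Zbtb7b has 3.

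Shared regions ranked high in their lists. The 16 regions called in all 6 lists had mean height percentiles of 60.5 to 96.0, with a median of 80.7, against 85.4 for the 4896 such regions of the genome. The 37 single-list regions had a median of 35.5, against 28.0 over the genome. In width the shared regions had a median of 9437 bp, wider than the 7342 bp of all shared regions. In the 7 regions called in 5 lists, the missing list was WT replicate 1 for 3, Cgas_KO replicate 2 for 3 and Cgas_KO replicate 3 for 1. WT replicate 1 had the fewest peaks in the windows.

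Pairs of lists shared regions to a like degree within and between genotypes. The number of regions shared by a pair over the number in either was 0.457 on average for the 3 WT pairs, 0.420 for the 3 Cgas_KO pairs and 0.429 for the 9 pairs of different genotype. The ranges overlapped, at 0.431 to 0.490, 0.394 to 0.452 and 0.394 to 0.5.

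The Cd4 window held the region with the highest mean percentile of the 4 windows, and its 3 top regions ranked high in both genotypes. The highest-ranked was region 12, from 124800249 to 124808635. It was 57, 52 and 62 steps high in the WT lists and 51, 34 and 20 in the Cgas_KO lists, at percentiles of 96.7, 96.9 and 97.3 and of 98.2, 95.4 and 91.7. Cgas_KO replicate 3 was lowest on both scales, and the percentiles of the genotypes overlapped. Regions 20 (124870657 to 124889534) and 3 (124713571 to 124725460) followed. Region 20 stood at percentiles of 97.1, 95.6 and 93.6 in WT and 96.7, 87.3 and 97.9 in Cgas_KO, with heights of 61, 44 and 40 steps and of 38, 23 and 34. Region 3 stood at 95.9, 91.7 and 92.4 in WT and at 94.4, 87.3 and 96.1 in Cgas_KO. Both groups overlapped on percentiles, and Cgas_KO replicate 2 was lowest in both regions.

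The remaining shared regions at Cd4 lay to the right of these and ranked lower. Region 23 (124904705 to 124912124) was at percentiles of 92.9, 86.8 and 95.2 in WT and 87.4, 71.7 and 88.6 in Cgas_KO. Region 25 (124938189 to 124947535) was uneven among WT lists, at 26.9, 81.1 and 39.3, and even among Cgas_KO lists, at 75.5, 78.8 and 70.0. Here WT replicate 2 stood above every Cgas_KO list and the other WT lists below all of them. Region 18, from 124860973 to 124866131, was called in all 3 Cgas_KO lists and in WT replicate 1, and was low there, at 12, 14 and 8 steps and at 15.

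Across the Cd4 window neither measure set the genotypes apart. Peaks numbered 9, 16 and 12 in WT and 15, 17 and 13 in Cgas_KO, and the groups overlapped (exact permutation p = 0.4, n = 3; adjusted over bins, 1). Their median height percentile was 66.7, 64.5 and 63.7 against 53.3, 71.7 and 70.0, with both the lowest and the highest value in Cgas_KO (exact permutation p = 1, n = 3; adjusted over bins, 1).

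At Cd8a-Cd8b1, whose genes are kept off in mature cells of the CD4 lineage, 1 region was called in all lists. This was region 16, from 71417315 to 71420436, which at 3122 bp was the narrowest of the 16 shared regions. It was 38, 26 and 32 steps high in WT and 33, 33 and 21 in Cgas_KO. Its percentiles were 92.5, 86.8 and 89.6 in WT and 95.2, 95.1 and 92.9 in Cgas_KO, so the genotypes did not overlap in rank, though they did in steps. For the test, ranks were turned into normal scores, whose unit is 1 SD of the regions in a list. The score of region 16 differed by 0.41 (SE 0.21), higher in 3 of 3 Cgas_KO libraries, with a limma adjusted p of 0.589, and was -0.01 with total signal in place of height. To its right, 49339 bp from 71420437 to 71469775 held no peak in any list, the longest such stretch in the 4 windows.

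The other regions at Cd8a-Cd8b1 were called in part of the lists. Of its 18 regions, 10 were called in 1 list, and 9 of those 10 in a Cgas_KO list, where 54.5% of all single-list regions were. At Cd4 and at the CD3 genes the 12 single-list regions were split 6 and 6 between the genotypes. At Zbtb7b all 3 were in a Cgas_KO list, and over the 4 windows 24 of 37 were. The Cd8a-Cd8b1 window held 4, 5 and 6 peaks in the WT lists and 8, 9 and 7 in the Cgas_KO lists. Every Cgas_KO list thus held more than any WT list. The means were 5 ± 1 and 8 ± 1 (SD, n = 3; two-sided exact permutation p = 0.1, the smallest that 3 against 3 allow; adjusted over all 300 kb bins, 1). Of the 300 kb bins, 3.84% had more peaks in every Cgas_KO list. As a share of each list's peaks, chosen as a measure after the data were examined, the window held 0.0146%, 0.0172% and 0.0221% in WT and 0.0271%, 0.0320% and 0.0220% in Cgas_KO. On that scale the genotypes overlapped, through Cgas_KO replicate 3, the longest list (exact permutation p = 0.2, n = 3). Median height percentiles of the window's peaks also overlapped, with WT at 76.4, 57.8 and 43.1 and Cgas_KO at 63.6, 36.2 and 52.7. Their means were 59.1 ± 16.7 and 50.8 ± 13.8 (SD over 3 lists; p = 0.5 by exact permutation, and 0.949 once adjusted over bins).

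**Figure D3:**
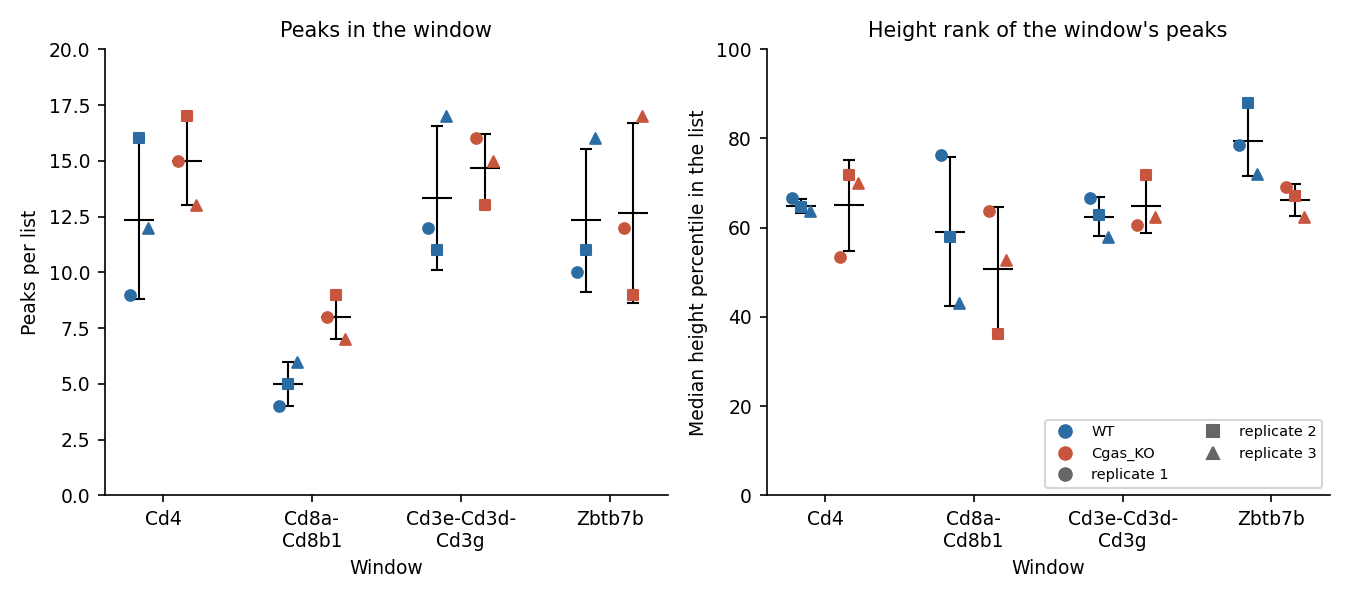
Peaks per list (left) and their median height percentile within the list (right) in each window; symbols are single libraries, coloured by genotype, with the mean and SD of 3 libraries as bars. The genotypes are apart for peaks at Cd8a-Cd8b1 (4 to 6 against 7 to 9) and for the percentile at Zbtb7b (72.0 to 87.9 against 62.4 to 69.1).

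The CD3 genes had 6 shared regions, the most of the 4 windows, at middle and high ranks. The top-ranked of the 6 was region 2 (44750165 to 44756251), at the left edge of the window. It stood at percentiles of 94.7, 89.6 and 92.8 in WT and 60.6, 87.3 and 94.6 in Cgas_KO, with Cgas_KO replicate 1 far below the rest. Region 1, from 44746451 to 44750145, straddled the edge and was called in all 3 Cgas_KO lists and in WT replicate 1. It is 1 of 4 regions that cross a window edge.

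In the interior of the CD3 window 4 wide regions were shared. Regions 7 (44788670 to 44798196) and 14 (44871844 to 44884580) had mean percentiles of 78.2 ± 10.1 and 85.2 ± 3.47 in WT and 69.8 ± 9.12 and 74.9 ± 11.2 in Cgas_KO (SD, n = 3). Regions 8 (44821023 to 44833777) and 15 (44887046 to 44902630) had 62.5 ± 24.2 and 54.9 ± 9.68 in WT and 66.9 ± 4.69 and 66.2 ± 13.1 in Cgas_KO. In all 4 the genotypes overlapped. Region 20, from 44933245 to 44937505, was called in all 3 WT lists and in Cgas_KO replicate 2. Region 29, from 45044438 to 45048957, had the highest mean percentile of the window, 88.0, but was called only in replicate 1 of each genotype.

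Region 28 of the CD3 window, from 45027396 to 45036153, had a lower rank in each Cgas_KO list than in any WT list. The WT lists gave 31, 33 and 37 steps and the Cgas_KO lists 20, 13 and 15, at percentiles of 88.2, 92.2 and 92.4 and of 81.4, 46.0 and 80.2. The genotypes did not overlap on either scale. The normal score differed by -1.07 (SE 0.35), lower in 3 of 3 Cgas_KO libraries, with a limma adjusted p of 0.419, and so did not pass. Without Cgas_KO replicate 2, its lowest list, the difference was -0.67. With total signal the difference was 0.09. Peaks in the window numbered 12, 11 and 17 in WT and 16, 13 and 15 in Cgas_KO, and the groups overlapped (exact permutation p = 0.7, n = 3; adjusted over bins, 1). Median percentiles of 66.7, 62.7 and 57.9 in WT and 60.6, 71.7 and 62.4 in Cgas_KO also overlapped (exact permutation p = 0.7; adjusted over bins, 0.989).

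At Zbtb7b, the gene of ThPOK, ranks and some calls separated the 3 WT from the 3 Cgas_KO lists, and no test passed. The median height percentile of the window's peaks was 78.6, 87.9 and 72.0 in WT and 69.1, 67.1 and 62.4 in Cgas_KO. Every Cgas_KO list was below every WT list, with means of 66.2 ± 3.48 against 79.5 ± 7.96 (SD, n = 3; exact permutation p = 0.1; adjusted over all 200 kb bins with a peak in every list, 0.792). Of those bins, 7.74% were lower in every Cgas_KO list. The difference of -13.3 was -2.12 when the window was widened by 100 kb on each side, and 5.49 with total signal in place of height. Peak numbers were 10, 11 and 16 in WT and 12, 9 and 17 in Cgas_KO, and overlapped (exact permutation p = 1, n = 3; adjusted over bins, 1).

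Neighbouring regions at the left of the Zbtb7b window differed in opposite directions. Region 4, from 89220951 to 89231386, was 34, 36 and 28 steps high in WT and 17, 16 and 12 in Cgas_KO. Its percentiles were 90.5, 93.5 and 86.0 against 71.6, 67.1 and 62.4, a difference in normal score of -1.14 (SE 0.21), lower in 3 of 3 Cgas_KO libraries. Region 3, from 89213622 to 89219602 and only 1348 bp away, was 14, 16 and 21 steps high in WT and 22, 22 and 18 in Cgas_KO. Its percentiles were 50.7, 66.7 and 75.6 against 85.6, 85.6 and 88.6, a difference of 0.97 (SE 0.27), higher in 3 of 3 Cgas_KO libraries. In steps the genotypes were apart in region 4 and overlapped in region 3. Neither passed, with limma adjusted p of 0.314 (0.145 to 0.663 over the alternatives) and 0.382 (0.172 to 0.686). By unadjusted p, region 4 ranked 18 of the 4896 regions tested and region 3 ranked 133.

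By mean percentile the highest-ranked region at Zbtb7b was region 5, from 89237646 to 89249837. It was 61, 41 and 48 steps high in WT and 32, 34 and 12 in Cgas_KO, at percentiles of 97.1, 95.0 and 95.6 and of 94.8, 95.4 and 62.4. Cgas_KO replicate 3 was far below the other 5 lists, and there region 5 ranked below regions 3 and 17. On percentiles the genotypes overlapped, while in steps every Cgas_KO list was below every WT list. Region 17, from 89353431 to 89358962, had mean percentiles of 78.5 ± 8.33 over the WT lists and 84.2 ± 5.93 over the Cgas_KO lists (SD, n = 3). The groups overlapped.

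Calls in all lists of 1 genotype and none of the other were seen in 2 regions, both at Zbtb7b and both in Cgas_KO, and this depended on how regions were built. Region 15 (89332041 to 89340283) was 15, 13 and 11 steps high in the Cgas_KO lists, and region 19 (89376596 to 89382660) 14, 15 and 8. Both were of middling or low rank, with mean percentiles of 53.1 ± 7.30 and 43.5 ± 24.3 (SD, n = 3). These 2 of 96 regions compare with 0.330% of all merged regions called in 3 Cgas_KO and 0 WT lists. The reverse, 3 WT and 0 Cgas_KO lists, occurred in 0 of 96, against 0.377%. Single-list regions, which cannot show either pattern, made up 38.5% of regions in the windows and 69.9% over the genome. Among regions called in exactly 3 lists, those in Cgas_KO alone were 2 of 8 in the windows and 313 of 5132 over the genome. No single region can pass Fisher's exact test with 3 against 3 libraries. Without the 50% of each list with the lowest total signal, the count was 0 of 65 regions. With maxima within 200 bp the direction turned, to 3 of 179 regions in WT alone and 0 in Cgas_KO alone. With 1 library fewer, fewer lists had to hold a region. Without WT replicate 2 the count was 5 of 90, of which 3 were in WT alone. Without Cgas_KO replicate 2 it was 4 of 88, of which 1 was in WT alone. Without WT replicate 1 (95 regions) or Cgas_KO replicate 3 (86 regions) it was 4, all in Cgas_KO alone. Shares over the genome under these alternatives are not given here, so their counts cannot be read as particular to the windows.

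Over the 16 shared regions together, relative height was tested with limma on normal scores of ranks, fitted to all 4896 shared regions of the genome. None of the 16 passed an adjusted p of 0.05, and 0.00% of the 4896 did. At an unadjusted p under 0.05 there were 3, region 28 of the CD3 window and region 4 of the Zbtb7b window lower in Cgas_KO and region 3 of the Zbtb7b window higher. Over the genome 3.84% were lower and 5.58% higher at that p. Without WT replicate 2 or 3, region 28 was no longer among them, with unadjusted limma p of 0.0580 and 0.0629. By total signal neither it (0.827) nor region 3 of the Zbtb7b window (0.166) was, while region 4 stayed (0.0459). Region 3 at Cd4 (0.0278) and region 17 at Zbtb7b (0.0405), both higher in Cgas_KO, then joined it. The count by total signal was thus again 3, against 487 of the 4896. The median difference was -0.16 over the 16 regions and -0.01 over all 4896, and turned to 0.07 over the 16 by total signal, with 6 of 16 lower in Cgas_KO in place of 10. Percentiles did not overlap between genotypes in 4 of the 16, of which 2 were higher in Cgas_KO, against 9.38% of all shared regions, and 2 lower, against 6.80%.

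**Figure D4:**
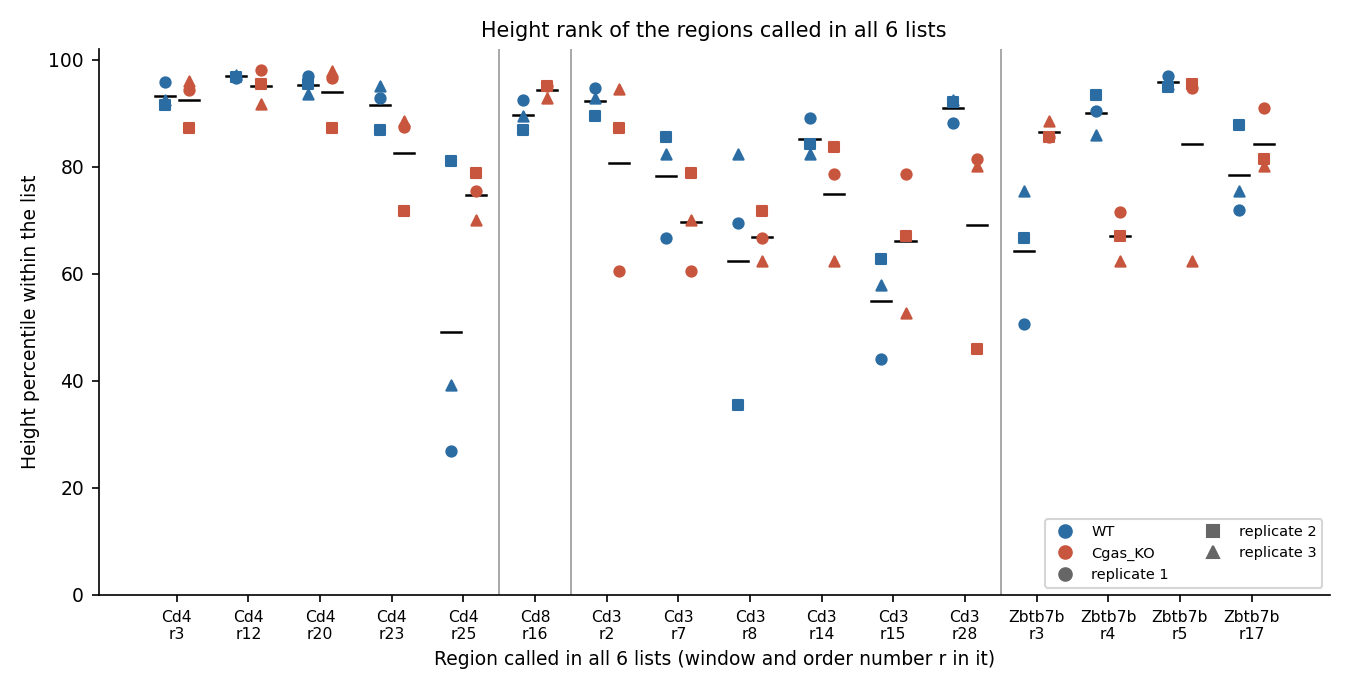
Height percentile within the list (y axis) of the 16 regions called in all 6 lists (x axis: window and region number, with Cd8 for Cd8a-Cd8b1 and Cd3 for Cd3e-Cd3d-Cd3g); symbols are single libraries and black bars are means of 3. The genotypes are apart in Cd8 r16, Cd3 r28, Zbtb7b r3 and Zbtb7b r4.

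In steps, 13 of the 16 shared regions had a lower mean in Cgas_KO, as had 85.4% of all shared regions. The genotypes did not overlap and Cgas_KO was lower in 9 of the 16, against 34.4% of all shared regions. Steps were thus lower in Cgas_KO in most shared regions of the genome and not only in the windows. Whole lists did not show such a drop throughout. Their median peak height, for replicates 1, 2 and 3, was 14, 13 and 13 steps with WT. For Cgas_KO it was 14, 13 and 11, so only replicate 3 fell below the WT lists. The meaning of a step is not stated in the labels, and the difference in shared regions cannot be told apart from one in scaling or depth.

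The point of maximum signal fell at nearly the same place in all lists in some shared regions and wandered in others. This position was not used to choose the regions. In 6 of the 16, all 6 lists had it within 500 bp of their median position, as in 49.9% of the 4896 shared regions. These 6 were regions 3 and 20 at Cd4, region 16 at Cd8a-Cd8b1, region 2 at the CD3 genes and regions 3 and 17 at Zbtb7b. The positions were 247 bp apart at most in Zbtb7b region 3, 279 bp in Cd4 region 20 and 407 bp in Cd8a-Cd8b1 region 16. The median of this range was 862.5 bp over the 16 regions and 696 bp over all shared regions.

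Whether spread of the position followed width or rank was not tested. The widest shared region, Cd4 region 20, was among the most aligned. The narrowest, region 16 at Cd8a-Cd8b1, also had all lists within 500 bp of the median. In region 15 of the CD3 window the positions lay up to 10473 bp apart, and in region 25 of the Cd4 window 2631 bp, and in neither was any list within 500 bp of the median. In Zbtb7b region 5 the 3 WT lists lay at -3, 4 and -55 bp from the median, while the Cgas_KO lists lay at 863, 815 and -4702 bp from it. In Zbtb7b region 4 the WT lists lay at 258, 415 and 157 bp and the Cgas_KO lists at -157, -510 and -1114 bp. The genotypes did not overlap in 2 of the 16 regions, this one and region 7 of the CD3 window, against 11.0% of all shared regions.

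**Figure D5:**
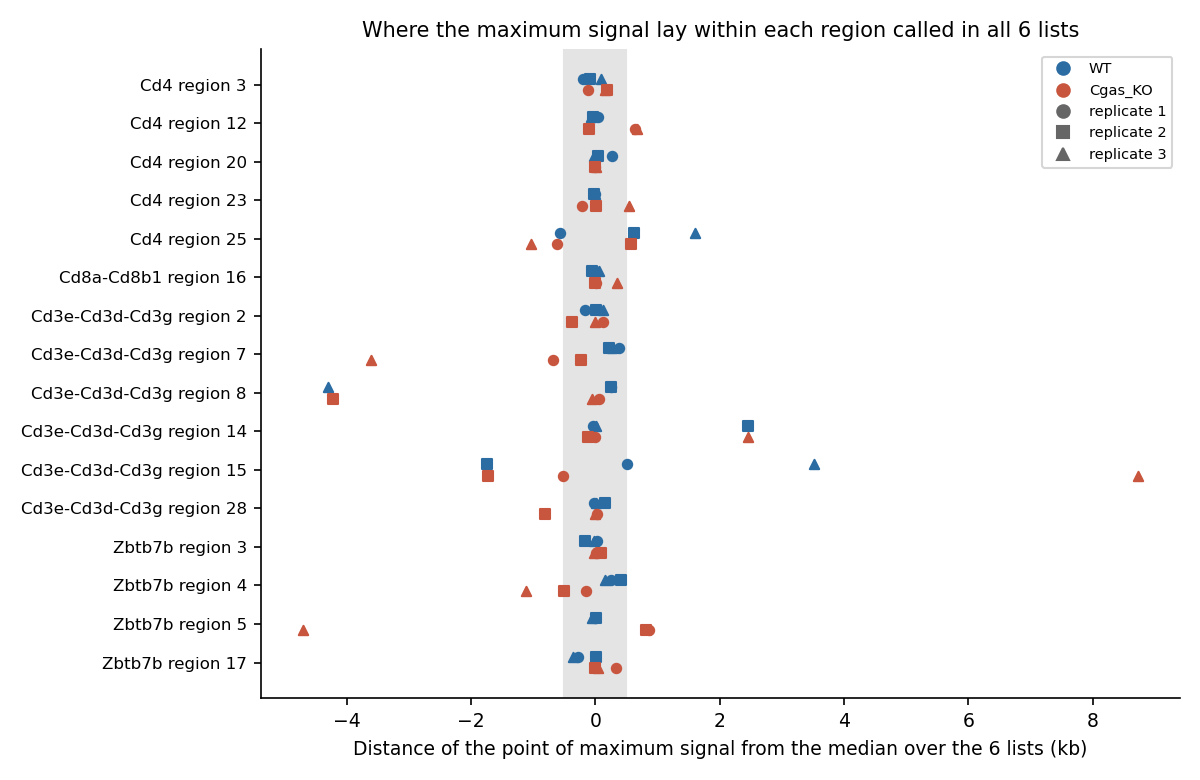
Distance in kb of the point of maximum signal from the median over the 6 lists (x axis) for each region called in all 6 lists (y axis); symbols are single libraries, coloured by genotype, and the grey band marks 0.5 kb on either side. Positions lie within the band for all lists in 6 of the 16 regions, and are most spread in region 15 of the CD3 window.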

How the data were processed

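Each of the 6 libraries had its own deposited peak list, and no list was called on pooled libraries. The submitters' processing notes name Bowtie2 and SEACR 1.3, and both mm10 and mm39; sequence names in the lists belong to mm39. File names carry 0.01, non and stringent; no control library or scaling is stated. The authors deposited total and maximum signal for each peak.

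Maximum signal, divided by the step of its list, was whole within 0.01 for 100% of peaks below 200 steps. Peaks overlapping by 1 bp were merged into regions, and the tallest peak gave a region's height in a list. Window values were compared by two-sided exact permutation tests (20 assignments), with Benjamini-Hochberg adjustment over the 4 windows and all genome bins of equal width that held a peak (for percentiles, a peak in every list). Relative height was tested with limma 3.58.1 under R 4.3.3, adjusted over 4896 regions. Other work used Python 3.11.15 with numpy 2.4.6 and scipy 1.17.1 (tables, pandas 2.3.3; plots, matplotlib 3.10.9). Scripts were tested on simulated data.

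Named regions were those in all 6 lists, those in all 3 lists of 1 genotype and at most 1 of the other, and the highest-ranked of each window. Alternatives were the 50% of each list with most total signal, lists of equal length (27207 peaks), wider windows, membership by position of the maximum, total signal, log2 heights, 50% coverage, maxima within 200 bp, a replicate block, and omission of each library. Windows and measures were chosen with earlier results of these data known. Without depth no counting intervals were possible, and 3 libraries per group limit the precision. No mm39 sequence or annotation was used, so motifs, promoters and the Cgas gene were not analysed here.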

Additional observations from a re-analysis of the deposited data

How the results depend on the processing

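Differences are Cgas_KO minus WT. Peak counts kept their direction under every alternative at Cd4, Cd8a-Cd8b1 and the CD3 genes. At Zbtb7b the difference of 0.333 peaks was -0.333 with wider windows, -0.00234 as a percentage of the list, and -1.83 to 2.17 when each library was left out. Median percentiles were less stable. At Cd4 (0.0582) they gave -10.0 in the 50% of peaks with most total signal, -0.16 with lists of equal length, -3.29 with wider windows, -0.531 by position of the maximum and -2.83 by total signal. At the CD3 genes (2.45) they gave -12.9 in the top 50%, -3.21 with wider windows and -3.51 by total signal. By total signal the difference was 11.6 at Cd8a-Cd8b1 (-8.26) and 5.49 at Zbtb7b (-13.3). Leaving out each library gave -3.30 to 5.90 at Cd4, -0.971 to 4.6 at the CD3 genes, -16.3 to 0.377 at Cd8a-Cd8b1 and -17.0 to -9.10 at Zbtb7b. The cause was not tested.

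The 16 shared regions became 0 with 50% coverage, where 608 were left over the genome, and 2 of 179 with maxima within 200 bp. Leaving out a library, which by construction asks for fewer lists, gave 16 to 19, and 5226 to 5543 over the genome. The 2 regions of 1 genotype became 0 in the top 50%, 0 with 50% coverage, and 3 of 179 with maxima within 200 bp, all in WT instead of Cgas_KO. They became 2 to 5 when a library was left out, again with fewer lists asked for. Shares over the genome are not given here for these counts. None of the 16 passed an adjusted p of 0.05 in limma under any alternative that could be fitted, and with 50% coverage none was left to test. Log2 heights gave 5 of 16 at an unadjusted limma p under 0.05, against 897 of the 4896 regions of the genome. On that scale 1 of the 4896, outside the windows, passed the adjusted threshold (lowest limma adjusted p 0.0270). By total signal the normal score turned to 0.67, 0.032 and 0.25 in regions 3, 20 and 23 at Cd4, -0.010 in region 16 at Cd8a-Cd8b1, and 0.043 and 0.094 in regions 7 and 28 at the CD3 genes. Leaving out each library gave -0.24 to 0.17, -0.49 to 0.0040 and -0.33 to 0.27 in regions 3, 12 and 20 at Cd4, and -0.36 to 0.43 in region 8 at the CD3 genes.

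Replicate numbers did not pair the libraries: same-numbered deviations correlated at -0.0129, -0.0169 and -0.0148. With a replicate block, limma called 0 of the 16 regions. At an unadjusted limma p under 0.05 there were 4 of the 16, against 422 of the 4896 shared regions of the genome. For 3 more peaks at Cd8a-Cd8b1 the blocked exact sign-flip permutation gave p = 0.25, the smallest possible. Depth is unknown, so a peak missing from a list need not mean a site without CTCF.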

Other observations

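The contrast between regions 3 and 4 of the Zbtb7b window was also read within each list, where scaling and list length cancel. This measure was chosen after their values had been seen, so it carries no test. The height of region 4 over that of region 3 was 2.43, 2.25 and 1.33 in the WT lists and 0.773, 0.727 and 0.667 in the Cgas_KO lists. Region 4 was thus the taller of both in every WT list and the lower in every Cgas_KO list. The mean log2 ratio of the WT lists was 0.96 ± 0.47 and that of the Cgas_KO lists -0.47 ± 0.11 (SD over 3 lists). The pair was picked for its contrast, so its place among other pairs only describes it. Of the 336 pairs of shared regions under 5 kb apart in the genome, 1 pair had a larger difference between genotypes. Ratios that did not overlap between genotypes were common among such pairs, at 20.5%. The windows held a second pair, regions 14 and 15 of the CD3 window. There the height of region 15 over that of region 14 was 0.406, 0.625 and 0.6 in WT and 1, 0.762 and 0.917 in Cgas_KO, and 43 of the 336 pairs had a larger difference.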
